A study of Mus musculus with 11 samples.

Results

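The Toll-like receptors of mouse skin were described here as the genes whose symbol is Tlr followed by a number. There were 12 of them among the 754 genes of a NanoString panel for myeloid innate immunity, an assay in which a colour-coded probe for each gene is counted without amplification of the RNA. Skin from the nape of the neck was taken 7 weeks after bone marrow transplant from 11 mice, which fell into 3 groups. The syngeneic group was 3 C57BL/6j recipients and the allo-WT group was 3 C57BL/6j recipients of an allogeneic graft. The allo-MCd group was 5 allogeneic recipients of the strain B6.Cg-KitW-sh/HNihrJaeBsmGlliJ, in which a Kit allele leaves the animal without mast cells. The recipients were female and 8 to 10 weeks old, and all had received 850 cGy of radiation followed by 5e6 bone marrow cells and 2e6 splenocytes. The labels give LP/J donor cells for all 11 mice, whereas the methods give LP/J cells for the allogeneic groups and C57BL/6J cells for the syngeneic group. LP/J and C57BL/6J differ at minor histocompatibility antigens, and the allogeneic graft is used as a model of chronic graft-versus-host disease (cGVHD). Because the Kit allele was carried in every cell of the recipient, and other lineages also use Kit, the allo-MCd mice are not a model of mast cell loss alone. There was no syngeneic transplant into the mast cell-deficient strain among these mice, so strain and transplant effects cannot be told apart in the comparison of allo-MCd with syngeneic skin.

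Toll-like receptors are membrane proteins of the innate immune system that bind molecules typical of microbes or of damaged tissue. Those at the cell surface bind bacterial lipids and proteins, and those in endosomes bind nucleic acids or parasite proteins that have been taken up. Most signal through the adaptor Myd88 to NF-kappaB and to interferon regulatory factors, which switch on cytokine and chemokine genes. In skin they are found on macrophages, dendritic cells, neutrophils and mast cells, and several of them also on keratinocytes, fibroblasts and endothelial cells. The 5 surface members were Tlr1, Tlr2, Tlr4, Tlr5 and Tlr6. The 7 endosomal members were Tlr3, Tlr7, Tlr8, Tlr9, Tlr11, Tlr12 and Tlr13. Tlr1 and Tlr6 lie next to each other on chromosome 5, and Tlr8 and Tlr7 next to each other on chromosome X, in the mouse assembly GRCm38.p6. Tlr1 and Tlr6 are close paralogs, and whether their probes are specific was not tested.

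The promoters of the genes with the largest differences between allo-MCd and allo-WT skin, and of Tlr11, which was not called there, are printed for comparison and were chosen after the values were seen. They are RefSeq sequences of GRCm38.p6 covering the 250 bases before the start of the gene, 5′ to 3′ on the strand of the gene. Tlr13 lies on the plus strand (chrX:106143025-106143274), Tlr1 on the minus strand (chr5:64933559-64933808), Tlr8 on the minus strand (chrX:167264330-167264579) and Tlr11 on the plus strand (chr14:50357664-50357913). Tlr1 has 2 starts in that table and the one farther upstream is shown. Capitals mark the letters GAGGAA or, on the other strand, TTCCTC, a core bound by ETS factors such as PU.1 of myeloid cells.
Tlr13: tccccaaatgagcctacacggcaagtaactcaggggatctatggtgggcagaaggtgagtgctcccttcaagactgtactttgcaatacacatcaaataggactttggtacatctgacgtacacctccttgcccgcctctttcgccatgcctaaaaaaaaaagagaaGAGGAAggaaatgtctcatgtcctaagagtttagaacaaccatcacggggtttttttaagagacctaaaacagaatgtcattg
Tlr1: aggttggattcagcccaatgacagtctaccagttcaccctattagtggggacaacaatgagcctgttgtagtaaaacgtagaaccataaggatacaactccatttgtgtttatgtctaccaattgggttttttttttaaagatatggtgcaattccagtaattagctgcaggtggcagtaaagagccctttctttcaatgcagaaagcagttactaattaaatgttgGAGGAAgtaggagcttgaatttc
Tlr8: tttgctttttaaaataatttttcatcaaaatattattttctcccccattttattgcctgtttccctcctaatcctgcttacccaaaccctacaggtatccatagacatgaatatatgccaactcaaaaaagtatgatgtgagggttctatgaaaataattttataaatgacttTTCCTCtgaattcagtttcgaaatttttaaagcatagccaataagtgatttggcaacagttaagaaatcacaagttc
Tlr11: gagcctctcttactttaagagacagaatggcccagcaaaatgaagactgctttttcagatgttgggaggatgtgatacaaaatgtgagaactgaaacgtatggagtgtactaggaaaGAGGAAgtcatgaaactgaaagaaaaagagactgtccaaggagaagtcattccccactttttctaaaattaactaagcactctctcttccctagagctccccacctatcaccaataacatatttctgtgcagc
Each of these promoters held 1 match, the promoter of Tlr11 included. Promoter sequences were matched for 10 of the 12 receptors, and 5 of those 10 (Tlr1, Tlr8, Tlr9, Tlr11 and Tlr13) held GAGGAA on either strand in at least 1 promoter, against 25.9% of the 27025 genes with a promoter of the same length, counted in the same way. An interferon-type repeat, GAAA and again GAAA with 2 bases between them, stood in the promoters of Tlr6 and Tlr11 and in those of 3.46% of all genes. The NF-kappaB-type letters, GGGA and CC with 4 bases between them, stood in those of Tlr2, Tlr3 and Tlr5 and of 19.7% of all genes. The AP-1 letters TGANTCA stood in that of Tlr9 and in those of 7.82% of all genes. All were searched on both strands, and in Tlr11 the interferon-type repeat did not overlap GAGGAA. A match describes these letters only.

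The values are the deposited normalized counts, meaning molecules counted multiplied by 1 factor for each mouse. A gene was called where limma gave an adjusted p of at most 0.05 after Benjamini-Hochberg adjustment over the 696 genes tested. Recovered totals ran from 831632 to 1460260 counts in a mouse. Each mouse's background, the mean of 8 negative control probes plus 2 SD, ran from 14.3 to 37.5 normalized counts. Of the 12 receptors, 10 were above it in all 11 mice, Tlr11 in 10 mice and Tlr12 in 4. The allo-WT mouse 1 stood apart, with 3975 counts of the strongest positive control probe against 17615 to 33547 in the others and the largest factor, 2.54. It had the highest value of the 3 allo-WT mice for 8 of the 12 receptors. As a check of the strain labels, Cpa3, a mast cell carboxypeptidase, was at 3322 ± 1121 in the syngeneic mice, at 3944 ± 2842 in the allo-WT mice and at 157 ± 121 in the allo-MCd mice (SD, n = 3, 3 and 5). Kit in allo-WT mouse 2 was 11.9 and so within the allo-MCd range of 7.98 to 21.7. That value was below the background of the mouse (15.7), and Kit was above background in none of the 5 allo-MCd mice. Cpa3 in allo-WT mouse 2 was 1015, against at most 309 in the allo-MCd mice.

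**Figure D1:**
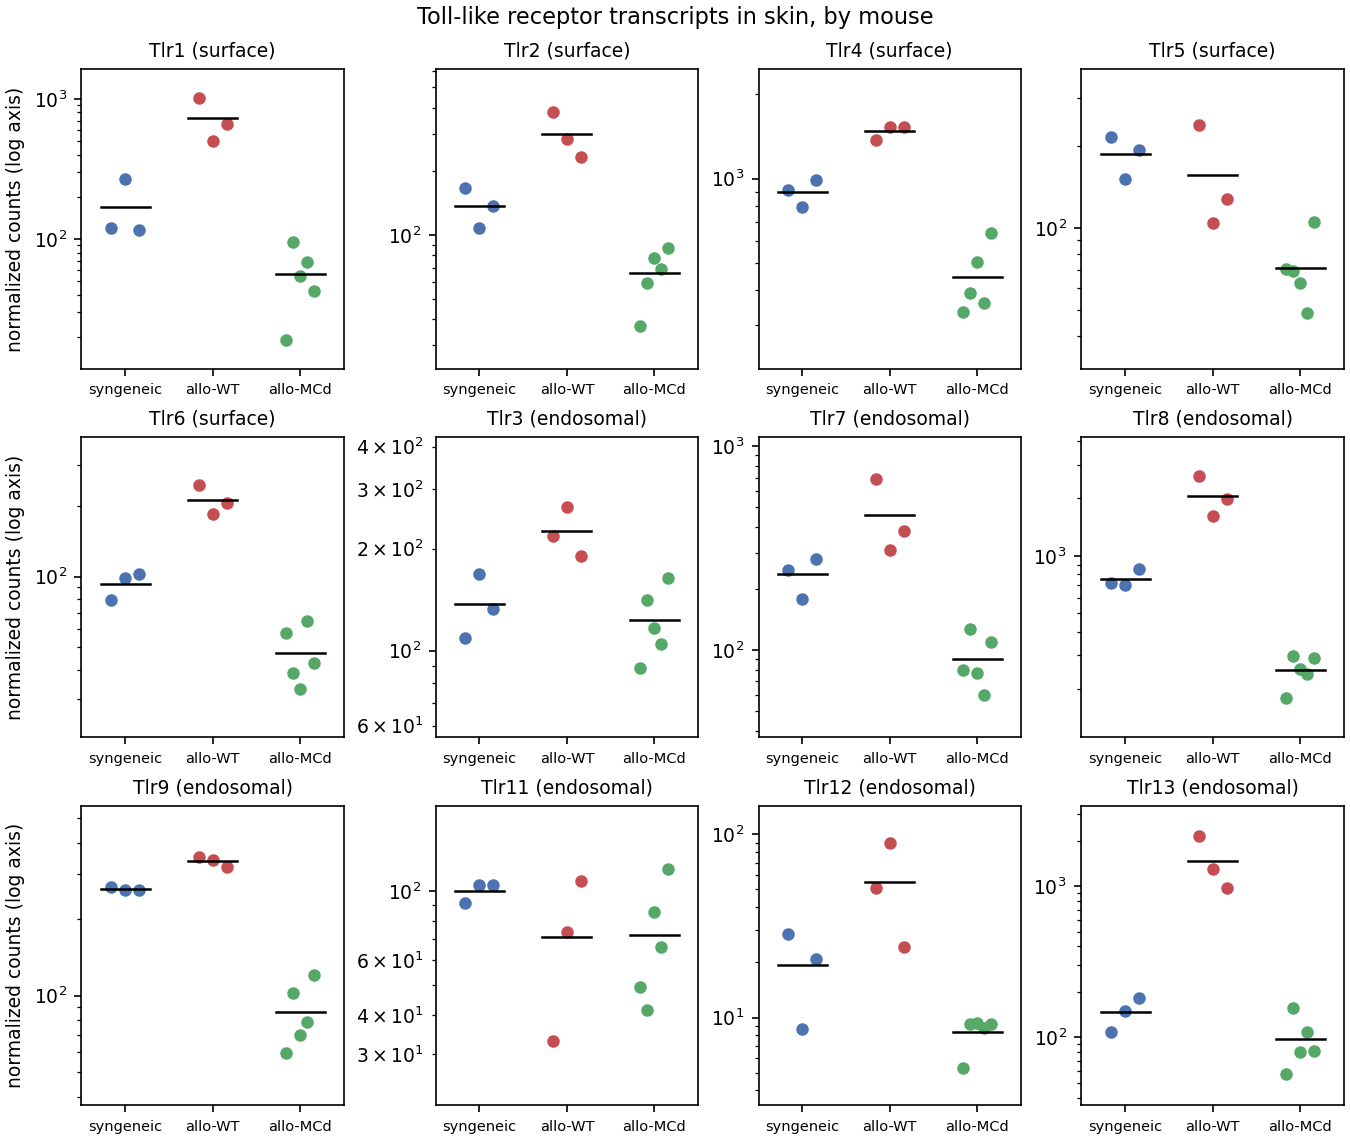
Normalized counts of the 12 Toll-like receptors in each mouse on log axes, with points for mice and a line for the arithmetic mean of each group. In 9 of the 12 panels the 3 allo-WT mice lie above every syngeneic mouse, and in 10 they lie above every allo-MCd mouse, with Tlr11 among the exceptions.

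Compared with allo-WT skin, allo-MCd skin held less transcript of 11 of the 12 receptors, and more of none. Tlr12, among the 11, was tested only because its allo-WT values passed the filter on low values. The largest differences were those of Tlr13, Tlr1 and Tlr8, and Tlr11 was not called. Over all genes tested, 50% were called lower in this comparison and 10.9% higher. The allo-MCd and allo-WT mice did not overlap for 10 of the 12, against 46% of all genes in that direction. The median log2 difference was -2.19 over the 12 receptors and -0.72 over all genes. Because the deposited values leave the typical gene lower in allo-MCd skin, the mice were also scaled to the same median gene. That moved the median of all genes to 0.12 and that of the receptors to -1.35, with 9 of the 12 called lower against 30.3% of all genes. Over all genes it turned 348 lower and 76 higher calls into 211 and 248. The same scaling moved the median of all genes from 0.21 to -0.04 in the comparison of allo-WT with syngeneic skin, and from -0.59 to -0.01 in that of allo-MCd with syngeneic skin. Lower and higher calls there went from 104 and 197 to 190 and 169, and from 257 and 32 to 94 and 97. In RNA from whole skin, fewer cells of a type and less RNA per cell cannot be told apart.

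Among the surface receptors, Tlr1, which pairs with Tlr2 to bind triacylated bacterial lipopeptides, differed most. Its normalized counts were 120, 269 and 116 in the syngeneic mice, 1017, 502 and 659 in the allo-WT mice and 19.0, 95.5, 54.75, 68.6 and 42.6 in the allo-MCd mice. All 3 groups were separate, and the lowest allo-WT mouse lay above the highest mouse of either other group. The means were 168 ± 87.6, 726 ± 264 and 56.1 ± 28.6 (SD, n = 3, 3 and 5). Tlr1 fell by 3.79 on the log2 scale from allo-WT to allo-MCd (SE 0.48, limma adjusted p = 3.43e-05).

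Tlr4, the receptor for lipopolysaccharide, had 914, 789.8 and 991 normalized counts in the syngeneic mice and 1377, 1533 and 1534 in the allo-WT mice. In the allo-MCd mice it had 336, 392, 503, 359.7 and 641. The 3 groups did not overlap, and the allo-WT mice lay close together. The log2 difference between allo-MCd and allo-WT was -1.77 (SE 0.22, limma adjusted p = 3.00e-05).

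Tlr2, the common partner of Tlr1 and Tlr6, ranged from 108 to 166 normalized counts in the syngeneic mice, from 234 to 380.3 in the allo-WT mice and from 37.2 to 86.3 in the allo-MCd mice. Tlr6, which pairs with Tlr2 to bind diacylated lipopeptides, ranged from 79.3 to 103 in the first of these groups, from 185 to 246 in the second and from 33.1 to 64.6 in the third. The groups of both genes were separate and stood in the same order as those of Tlr1 and Tlr4. From allo-WT to allo-MCd skin, Tlr2 and Tlr6 fell by nearly the same amount, with log2 differences of -2.19 (SE 0.30, limma adjusted p = 6.89e-05) and -2.18 (SE 0.27, limma adjusted p = 3.06e-05). Tlr1 stood apart from its neighbour: the ratio of Tlr1 to Tlr6 within a mouse was 2.71 to 4.13 in allo-WT and 0.33 to 2.45 in allo-MCd skin, without overlap, and 1.13 to 2.74 in syngeneic skin.

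Tlr5, the flagellin receptor, did not follow this order. It had 215, 151 and 193 normalized counts in the syngeneic mice, 238, 104 and 128 in the allo-WT mice and 70.6, 69.5, 63.0, 48.7 and 105 in the allo-MCd mice. Syngeneic and allo-WT mice overlapped, and allo-WT mouse 2 lay just under the highest allo-MCd mouse. The log2 difference between allo-MCd and allo-WT was -1.08 (SE 0.32, limma adjusted p = 0.0118). Leaving out allo-WT mouse 1 (-0.73, adjusted p = 0.0716 by limma) or scaling to the median gene (-0.24, adjusted p = 0.454) ended this call.

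Among the endosomal receptors, Tlr13, which binds bacterial ribosomal RNA, showed the largest difference of the 12. It had 109, 150.4 and 181 normalized counts in the syngeneic mice and 2135, 1304 and 973 in the allo-WT mice. In the allo-MCd mice it had 56.95, 157, 80.6, 108 and 81.7. Every allo-WT mouse lay far above the others, whereas the syngeneic and allo-MCd ranges overlapped. The means were 147 ± 35.9, 1471 ± 598 and 96.9 ± 38.1 (SD, n = 3, 3 and 5). The allo-MCd level was 15.1-fold below that of allo-WT, a log2 difference of -3.92 (SE 0.35, limma adjusted p = 2.43e-06). Leaving out allo-WT mouse 1 gave -3.61.

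Tlr8, a sensor of RNA fragments, had 717, 706 and 856 normalized counts in the syngeneic mice and 2614, 1615 and 1976 in the allo-WT mice. In the allo-MCd mice it had 179, 297, 255, 238 and 292. The 3 groups did not overlap, with allo-WT highest and allo-MCd lowest. Tlr8 fell by 3.02 on the log2 scale from allo-WT to allo-MCd (SE 0.22, limma adjusted p = 8.03e-07). Its neighbour Tlr7, a receptor for single-stranded RNA, ranged from 179 to 280.1 in the syngeneic mice, from 308 to 689.5 in the allo-WT mice and from 59.8 to 127 in the allo-MCd mice, and its log2 difference was -2.29 (SE 0.32, limma adjusted p = 7.47e-05). The highest Tlr7 value was that of allo-WT mouse 1, without which the difference was -1.96 (limma adjusted p = 0.000472). The ratio of Tlr8 to Tlr7 within a mouse was 3.79 to 5.24 in allo-WT and 2.25 to 3.99 in allo-MCd skin, which overlapped.

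Tlr9, which binds unmethylated CpG DNA, varied little within the syngeneic and allo-WT groups. Its normalized counts were 268, 259.6 and 261 in the syngeneic mice, 349.8, 340.4 and 322 in the allo-WT mice and 59.2, 102, 70.25, 79.0 and 121 in the allo-MCd mice. Syngeneic and allo-WT mice were near each other, and every allo-MCd mouse lay far under both. The log2 difference between allo-MCd and allo-WT was -2.001 (SE 0.25, limma adjusted p = 3.00e-05). Tlr3, the receptor for double-stranded RNA, had 109, 169 and 132 in the syngeneic mice, 218, 266 and 190.3 in the allo-WT mice and 88.8, 141, 117, 104 and 163 in the allo-MCd mice. The allo-WT mice lay above the other mice, and the syngeneic and allo-MCd mice overlapped. The Tlr3 log2 difference was -0.89 (SE 0.26, limma adjusted p = 0.0106), and under median scaling it was -0.05 (limma adjusted p = 0.871).

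Tlr11 and Tlr12, which bind profilin of protozoan parasites, behaved unlike each other. Tlr11 had 91.3, 105 and 105 normalized counts in the syngeneic mice, 33.0, 74.0 and 107 in the allo-WT mice and 49.4, 41.7, 85.7, 66.2 and 117 in the allo-MCd mice. The low value was that of allo-WT mouse 1 and was under the background of that mouse. The log2 difference between allo-MCd and allo-WT was 0.07 with a 95% interval from -0.82 to 0.96 (limma adjusted p = 0.890), an interval that holds differences of nearly 1 in either direction. Median scaling gave 0.90 (limma adjusted p = 0.0546). Tlr12 had 28.4, 8.65 and 20.95 in the syngeneic mice, 50.7, 89.6 and 24.3 in the allo-WT mice and 5.32, 9.27, 9.30, 8.77 and 9.21 in the allo-MCd mice. It was above background in all 3 allo-WT mice, in 1 of 3 syngeneic mice and in none of the 5 allo-MCd mice, where recovered counts were 7 to 11. Against the background of the allo-MCd mice, Tlr12 was at least 2.42-fold higher in allo-WT skin, and limma called it (adjusted p = 0.000699).

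**Figure D2:**
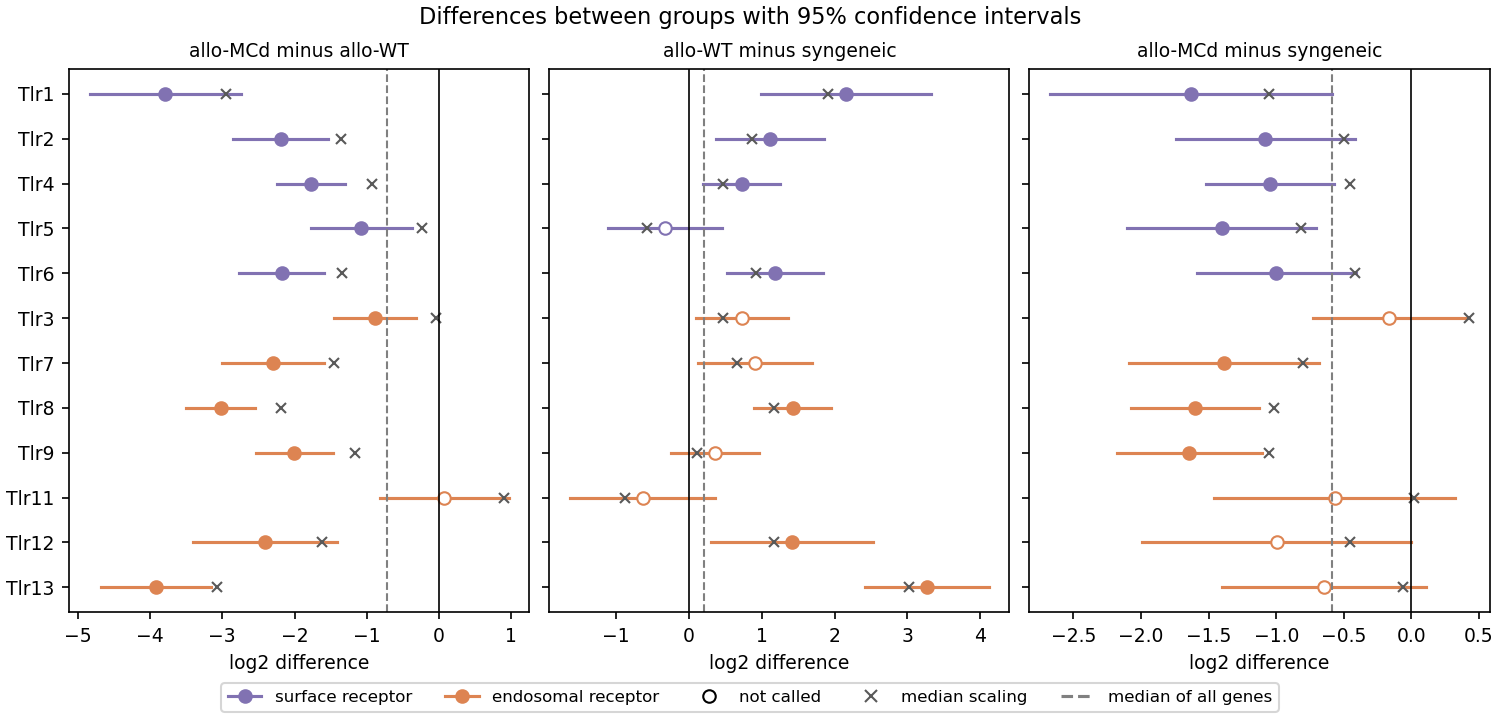
Log2 differences of the 12 receptors in the 3 comparisons, with bars for 95% confidence intervals, filled points for called genes, crosses for values under median scaling and a dashed line at the median of all genes tested. Tlr13, Tlr1 and Tlr8 stand farthest to the left in allo-MCd minus allo-WT at -3.92, -3.79 and -3.02, and Tlr11 stands at 0.07.

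Allogeneic transplant into wild-type mice was accompanied by higher levels of 7 of the 12 receptors than in syngeneic skin, and no receptor was called lower in this fit. Over all genes tested, 28.3% were called higher and 14.9% lower. Tlr13 rose most, with a log2 difference of 3.27 (SE 0.39, limma adjusted p = 0.000126), a 9.64-fold higher level. Tlr1 rose by 2.16 (SE 0.53, limma adjusted p = 0.00721) and Tlr8 by 1.42 (SE 0.24, limma adjusted p = 0.000933). Tlr12 (1.42, limma adjusted p = 0.0412), Tlr6 (1.18, limma adjusted p = 0.00870), Tlr2 (1.11, limma adjusted p = 0.0199) and Tlr4 (0.73, limma adjusted p = 0.0300) were also called. Tlr12, however, was above background in only 1 syngeneic mouse, and it passed the filter only through the allo-WT mice. The call of Tlr4 was lost on leaving out any of the 6 mice compared, with log2 differences of 0.64 to 0.80 (limma adjusted p from 0.0503 to 0.0872). The call of Tlr12 was lost under 12 of the 23 alternatives run, median scaling among them (1.16, limma adjusted p = 0.0681). Tlr7 (0.91, limma adjusted p = 0.0595), Tlr3 (0.72, limma adjusted p = 0.0616) and Tlr9 (0.36, limma adjusted p = 0.293) did not pass, yet their allo-WT mice all lay above the syngeneic mice. Tlr5 (-0.33, limma adjusted p = 0.455) and Tlr11 (-0.64, limma adjusted p = 0.265) did not pass and overlapped, and quantile normalization made a lower call of Tlr11 (-1.05, limma adjusted p = 0.0459). The groups did not overlap for 9 of the 12, against 33.6% of all genes in that direction. With 3 mice against 3, the smallest two-sided exact permutation p is 0.1, which these 9 genes reached. Without allo-WT mouse 1, 4 of the 12 were called (Tlr1, Tlr6, Tlr8 and Tlr13), and without syngeneic mouse 3 also 4. Under median scaling 6 were called higher, against 24.3% of all genes.

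The level in allo-MCd skin was below that of syngeneic skin for 8 of the 12 receptors, and above it for none. Over all genes tested, 36.9% were called lower in this comparison and 4.6% higher. Tlr9 (log2 difference -1.64, SE 0.25, limma adjusted p = 0.00130), Tlr1 (-1.63, SE 0.48, limma adjusted p = 0.0175) and Tlr8 (-1.60, SE 0.22, limma adjusted p = 0.00107) showed the largest differences. Tlr5 (-1.40), Tlr7 (-1.39), Tlr2 (-1.08), Tlr4 (-1.04) and Tlr6 (-0.999) were called too, with limma adjusted p from 0.00337 to 0.0145. Tlr12 (-0.997, limma adjusted p = 0.0935), Tlr13 (-0.65, limma adjusted p = 0.147), Tlr11 (-0.57, limma adjusted p = 0.270) and Tlr3 (-0.16, limma adjusted p = 0.622) did not pass. The 8 called genes were the 8 whose groups did not overlap, against 37.4% of all genes in that direction. The interval of Tlr13 ran from -1.40 to 0.11, and that of Tlr3 from -0.73 to 0.40. Median scaling left 3 of the 12 called, Tlr5, Tlr8 and Tlr9, against 13.5% of all genes, so most of these calls depended on the scaling of the mice. The comparisons share mice, and their values for a receptor are therefore not independent.

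The surface and the endosomal receptors were also described apart. Between allo-MCd and allo-WT skin, 5 of 5 surface and 6 of 7 endosomal receptors were called lower, with median log2 differences of -2.18 and -2.29, beside 50% of all genes. Between allo-WT and syngeneic skin, 4 of 5 surface and 3 of 7 endosomal receptors were called higher, with medians of 1.11 and 0.91, beside 28.3% of all genes. Between allo-MCd and syngeneic skin, 5 of 5 surface and 3 of 7 endosomal receptors were called lower, with medians of -1.08 and -0.997, beside 36.9% of all genes. The last of these medians is the value of Tlr12, which was above background in none of the allo-MCd mice and 1 syngeneic mouse. Tlr12 is also counted as called in the comparisons that involve allo-WT skin, and it passed the filter only through the allo-WT mice. Without Tlr12, the endosomal medians in the 3 comparisons were -2.15, 0.81 and -1.02. Under median scaling, the counts between allo-MCd and syngeneic skin became 1 of 5 surface and 2 of 7 endosomal receptors, with medians of -0.50 and -0.46, beside 13.5% of all genes. The wider range was that of the endosomal class, which held the largest difference from allo-WT, Tlr13, and the gene that was not called, Tlr11.

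The mean log2 level of the 7 endosomal receptors minus that of the 5 surface receptors was also taken within each mouse, where the scaling of the mouse cancels. Since each gene has its own probe, the sign of this difference has no meaning by itself and it was compared only between groups. It was -0.43, -0.58 and -0.27 in the syngeneic mice, -0.56, -0.04 and -0.39 in the allo-WT mice and -0.23, -0.07, -0.22, -0.34 and -0.12 in the allo-MCd mice. The means were -0.43 ± 0.16, -0.33 ± 0.27 and -0.20 ± 0.10 (SD, n = 3, 3 and 5). The groups overlapped in all 3 comparisons, and the difference of 0.13 between allo-MCd and allo-WT was under the SD within groups of 0.17. That of 0.10 between allo-WT and syngeneic skin was under it too, and that of 0.23 between allo-MCd and syngeneic skin was above it. Without Tlr12 the differences were 0.19, 0.04 and 0.23, the SD within groups of that score was 0.15, and the groups overlapped again in all 3 comparisons.

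**Figure D3:**
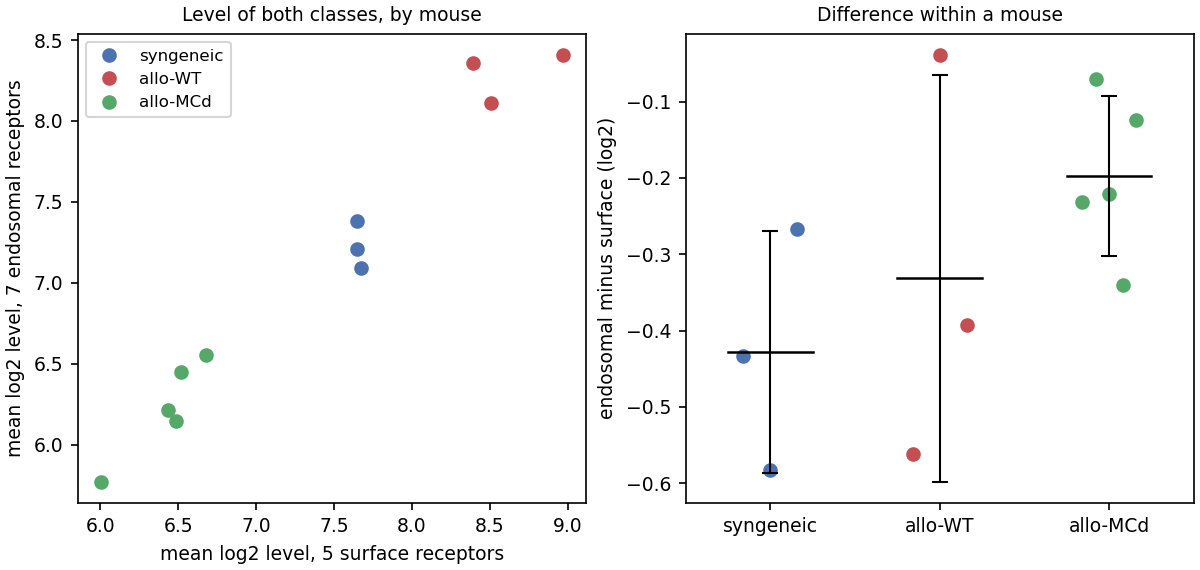
Left, the mean log2 level of the 7 endosomal receptors against that of the 5 surface receptors, a point for each mouse. Right, the endosomal minus the surface mean within each mouse, with lines for group means and bars for the SD, where the 3 groups overlap at means of -0.43, -0.33 and -0.20.

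Ptprc and the monocyte and macrophage markers differed between the groups in the same direction as most receptors. The neutrophil, dendritic cell and mast cell markers did so in some comparisons only. Ptprc, which encodes the pan-leukocyte protein CD45, had 1866, 1729 and 2069.7 normalized counts in the syngeneic mice, 3914, 2636 and 3677 in the allo-WT mice and from 472 to 1094 in the allo-MCd mice. From allo-WT to allo-MCd skin its log2 difference was -2.22 (SE 0.24, limma adjusted p = 1.20e-05), close to the median receptor at -2.19. Of the monocyte and macrophage markers, 8 of 9 were on the panel and all 8 were called lower between allo-MCd and allo-WT skin, where 50% of all genes were. Their summed level was 14311 to 16737 in the syngeneic mice, 24542 to 40843 in the allo-WT mice and 4553 to 8433 in the allo-MCd mice. Of the mast cell markers, 7 of 9 were on the panel and all 7 were called lower, with sums of 3851 to 9348, 2397 to 14802 and 139 to 656. Between allo-WT and syngeneic skin 1 of these 7 was called, higher, and their median log2 difference was -0.01, beside 28.3% of all genes called higher and 14.9% lower. Of the dendritic cell markers, 5 of 8 were on the panel, with sums of 427 to 495, 368 to 515 and 159 to 379. From allo-WT to allo-MCd 2 of the 5 were called lower, with a median of -0.25. Between allo-WT and syngeneic skin none of the 5 was called, and their median of -0.31 had the sign opposite to that of the receptors. The medians of the fibroblast and endothelial cell markers had the sign opposite to that of the receptors between allo-WT and syngeneic skin and the same sign between allo-MCd and syngeneic skin. Between allo-WT and syngeneic skin, 1 of the 4 fibroblast markers on the panel was called lower and none higher (median -0.94), and both endothelial markers on the panel were called lower (median -1.52). From allo-WT to allo-MCd, 1 of the 4 fibroblast markers was called lower (median -0.38) and neither endothelial marker was called (median 0.49). Between allo-MCd and syngeneic skin, 3 of the 4 fibroblast markers (median -1.32) and 1 of the 2 endothelial markers (median -1.02) were called lower, beside 36.9% of all genes. The sums of the 7 neutrophil markers were 514 to 741, 3929 to 133582 and 555 to 1167. From allo-WT to allo-MCd 5 of the 5 tested were called lower, beside 50% of all genes. Between allo-WT and syngeneic skin 4 of the 5 were called higher (median 3.51), beside 28.3% of all genes. Between allo-MCd and syngeneic skin none of the 5 was called (median 0.09). Under median scaling, the calls from allo-WT to allo-MCd were 7 of 8 monocyte and macrophage, 6 of 7 mast cell, 4 of 5 neutrophil and 1 of 5 dendritic cell markers lower, beside 30.3% of all genes. The same scaling turned the medians of the dendritic cell and fibroblast markers there to 0.58 and 0.46, with no fibroblast marker called, and both endothelial markers were called higher (median 1.34), beside 35.6% of all genes. Between allo-WT and syngeneic skin it made 3 of the 4 fibroblast markers and 1 of the 5 dendritic cell markers lower calls, beside 190 of the 696 genes tested. Between allo-MCd and syngeneic skin it left no fibroblast or endothelial marker called, beside 13.5% of all genes lower and 13.9% higher. No marker was at 0 in a mouse, but some were below background. Mpo was above it in 2 of 11 mice, Ly6g in 3 and Elane in 5, and Kit and Ms4a2 in none of the 5 allo-MCd mice. The neutrophil sum of 133582, that of allo-WT mouse 1, was mostly S100a8 (76492) and S100a9 (55154). T cell and keratinocyte markers of the lists were not on the panel. The part of each cell type in the receptor differences was not tested.

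Each receptor was therefore also expressed as a log2 ratio to Ptprc in the same mouse, which is a description of the balance between these transcripts. Between allo-MCd and allo-WT skin, the ratio of Tlr13 differed by -1.70, that of Tlr1 by -1.57 and that of Tlr8 by -0.81, and the groups of these ratios did not overlap. The ratios of Tlr11 (2.29), Tlr3 (1.33) and Tlr5 (1.14) were higher in allo-MCd skin, also without overlap. The ratios of Tlr2, Tlr4, Tlr6, Tlr7 and Tlr9 differed by -0.08 to 0.45 and overlapped. That of Tlr12 (-0.20) rests on values below background in every allo-MCd mouse and does not place it beside Ptprc, and that of Tlr11 rests on a value below background in 1 allo-WT mouse. The macrophage genes Csf1r (0.12), Adgre1 (-0.09) and Cd68 (-0.33) overlapped as well. Between allo-WT and syngeneic skin the ratios of Tlr13 (2.43), Tlr1 (1.32) and Tlr8 (0.59) were higher and those of Tlr11 (-1.47) and Tlr5 (-1.16) lower, without overlap. The ratio of Cd68 was higher there too, by 0.50 without overlap, which is near the value of Tlr8. Between allo-MCd and syngeneic skin the ratio of Tlr3 alone did not overlap (1.22). From allo-WT to allo-MCd skin, Tlr13, Tlr1 and Tlr8 thus differed by more than Ptprc, while Tlr2, Tlr4, Tlr6, Tlr7 and Tlr9 lay near it. Tlr3, Tlr5 and Tlr11 differed by less than Ptprc. Ptprc itself (-2.22) differed by more than the median of all genes tested (-0.72), so a gene at that median would also have a higher ratio. Tlr3 (-0.89) and Tlr5 (-1.08) lay nearer to that median than to Ptprc. The share of all genes whose ratios did not overlap was not counted.

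**Figure D4:**
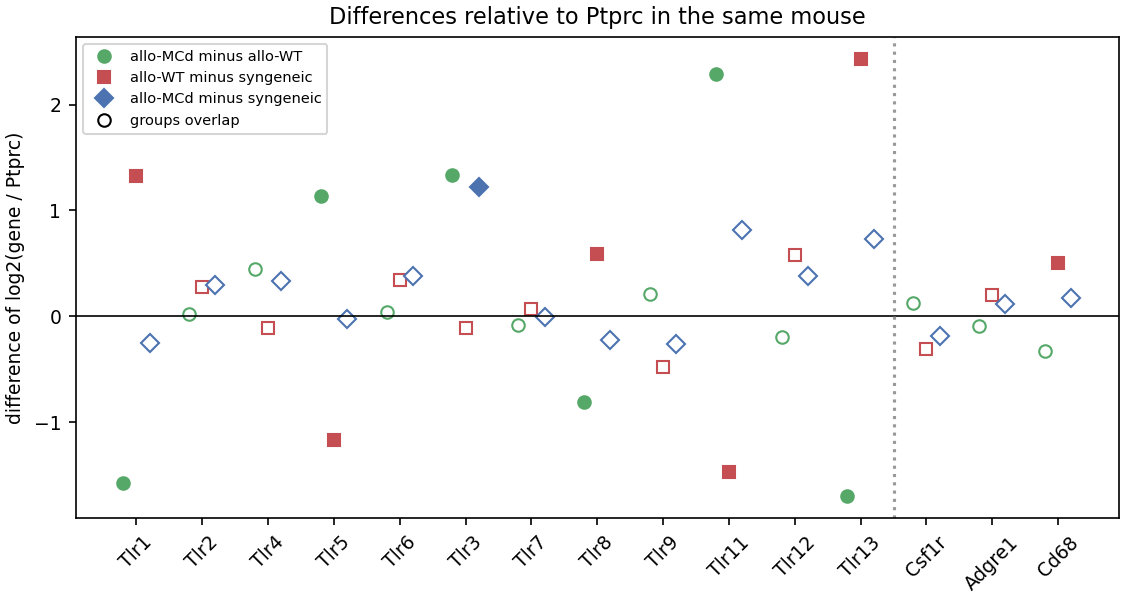
Differences between groups of the log2 ratio of each receptor, and of 3 macrophage genes to the right of the dotted line, to Ptprc in the same mouse, with filled symbols where the groups do not overlap. Tlr13 at -1.70 and Tlr1 at -1.57 lie lowest and Tlr11 at 2.29 highest in allo-MCd minus allo-WT, and Tlr12 was below background in all 5 allo-MCd mice.

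The proteins that work with the receptors were described from lists by role, in the comparison of allo-MCd with allo-WT skin unless stated. Of all genes tested, 50% were called lower there and 10.9% higher, and under median scaling 30.3% and 35.6%. Of 12 co-receptors and chaperones, 6 were on the panel, and 5 were called lower and none higher. These were the lipopolysaccharide co-receptor Cd14 (log2 difference -2.17), the Tlr4 homolog Cd180 (-1.88), the beta-glucan receptor Clec7a (-2.95) and the integrin chains Itgam (-2.26) and Itgb2 (-2.83), with limma adjusted p from 8.03e-07 to 0.00125. Cd36, a scavenger receptor that assists Tlr2 and Tlr6, was not called at 0.20 (limma adjusted p = 0.669), and median scaling gave 1.05 (limma adjusted p = 0.0132). The adaptor Myd88 was 500.3 ± 38.0 in the syngeneic mice, 903 ± 165 in the allo-WT mice and 409 ± 58.7 in the allo-MCd mice (SD, n = 3, 3 and 5). Its log2 difference was -1.14 (SE 0.19, limma adjusted p = 0.000238) and was -0.29 under median scaling (limma adjusted p = 0.216), so that it differed less than most receptors. Of 18 kinases and ubiquitin ligases, 5 were tested and 3 called lower, among them Btk (-1.88) and Syk (-1.58), tyrosine kinases of immune receptor signalling, and median scaling left 3 lower and made 1 higher. Of 10 transcription factors, 5 were tested, 3 called lower and 1 higher. Irf7 (-2.06) and Irf5 (-1.11), which act downstream of the endosomal receptors, were lower, and Jun (0.78), a subunit of AP-1, was higher. Median scaling ended the call of Irf5 (-0.26, limma adjusted p = 0.227) and left 1 of the 5 called lower and 2 higher.

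Of 8 genes listed as inhibitors of the pathway, a role that was not tested here, 5 were tested and 3 called lower, a share near the 50% of all genes. Socs1 (-2.57) and Socs3 (-1.65), which restrain cytokine signalling, and the NF-kappaB inhibitor Nfkbia (-0.54) were called. Nfkbiz (-0.54, limma adjusted p = 0.0663) and Tnfaip3 (-0.54, limma adjusted p = 0.0738) were not. Under median scaling Socs1 alone was called, Socs3 was at -0.81 (limma adjusted p = 0.0590) and Nfkbia changed sign (0.31, limma adjusted p = 0.167). Both tested proteases of the endolysosome, where the endosomal receptors are cleaved to their active form, were lower: Ctss by a log2 difference of -3.57 and Ctsl by -1.52. Of 9 host-derived ligands, 6 were tested and 4 called lower (3 under median scaling, with 1 higher), led by S100a9 (-6.15) and S100a8 (-4.49), which bind Tlr4 and are neutrophil genes as well. S100a9 was 55154, 12613 and 1188 in the 3 allo-WT mice, so these values differed by more between allo-WT mice than any receptor did. Of 17 cytokine and chemokine targets, 15 were called lower and none higher, led by Ccl3 (-4.30) and Cxcl10 (-4.20). Median scaling left 12 of the 17 called lower and made 1 higher, Il12a, which was above background in only 1 of 3 allo-WT and 2 of 5 allo-MCd mice. Of 10 pattern recognition receptors outside the family, 5 were tested and all called lower (3 under median scaling), among them Nlrp3 (-2.81).

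Against syngeneic skin the counts by role were as follows, with no test of a difference between roles. In allo-WT skin 9 of the 17 cytokine and chemokine targets were called higher and 1 lower, beside 28.3% and 14.9% of all genes, and Myd88 was higher by 0.84 (limma adjusted p = 0.00733). In allo-MCd skin 3 of the 17 were called lower than in syngeneic skin and none higher, beside 36.9% and 4.6% of all genes, and Myd88 was not called (-0.30, limma adjusted p = 0.205). In the same comparison 8 of the 12 receptors and 5 of the 6 co-receptors and chaperones were called lower. Under median scaling these counts became 0 of 17 targets lower and 1 higher, 3 of 12 receptors and 5 of 6 co-receptors and chaperones, beside 13.5% of all genes lower and 13.9% higher. The median of the targets turned from -0.39 to 0.17, and Myd88 turned to 0.29 (limma adjusted p = 0.299).

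**Figure D5:**
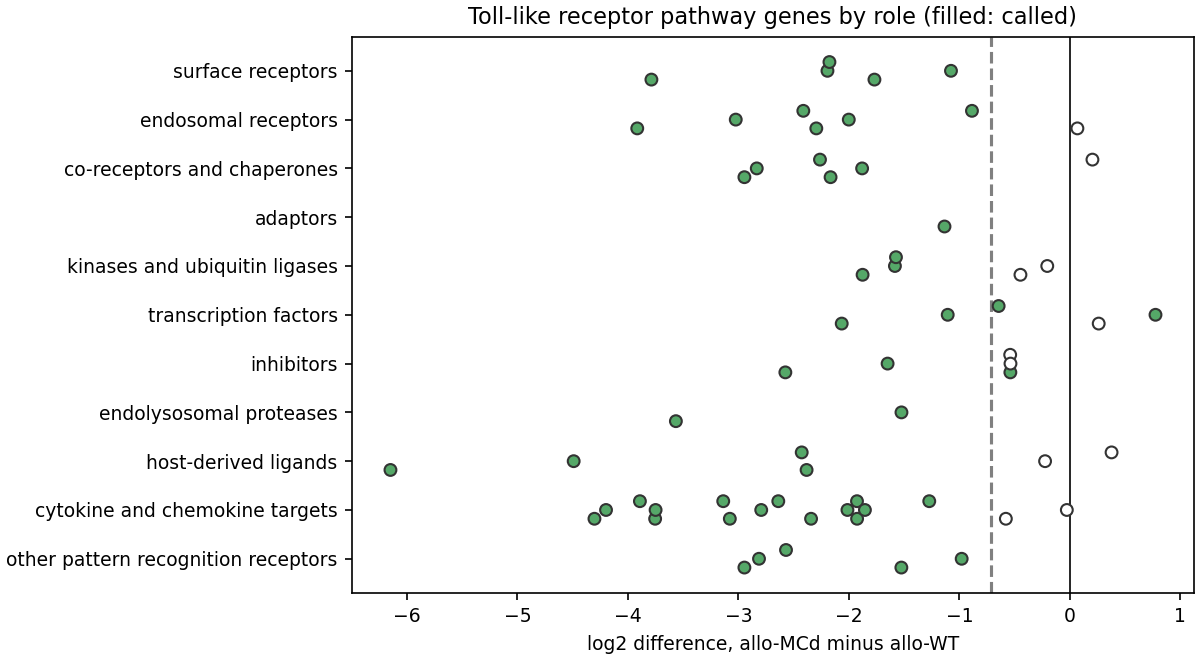
Log2 differences between allo-MCd and allo-WT skin for the receptors and the other pathway genes tested, a point for each gene by role, filled where called (Clec7a stands in 2 roles), with a dashed line at the median of all genes tested, -0.72. Jun at 0.78 is the called gene to the right of 0, and S100a9 at -6.15 lies farthest to the left.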

How the data were processed

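RNA from the skin of 11 mice (100 ng each) was run by the authors on the NanoString nCounter system and normalized in nSolver. Per the labels, RNA was extracted with Trizol, and the methods name Ribozol. The deposited table holds 1 normalized signal for each gene and mouse, 754 genes and 14 control probes. Its values were whole counts multiplied by 1 factor for each mouse (0.759 to 2.54) in 99.9% to 100.0% of genes, within 0.011 of a whole number of counts. The geometric mean of 20 housekeeping genes was the same in 10 mice (1104) and lower in allo-MCd mouse 5 (1089), and these genes were left out of the tests. Genes that reached 20 in 3 or more mice (696 of 734, all 12 receptors included) were tested as log2(value + 1) with limma 3.58.1 in R 4.3.3, with an intensity trend, all 3 groups in 1 fit and 3 comparisons. Fold changes are on that scale and understate those of low genes. Tlr12 passed the filter of 20 only through the allo-WT mice, so its calls from allo-WT skin are not independent of the filter. Single receptors were also compared with two-sided exact permutation tests over mice in Python 3.11.15 (smallest possible p 0.0179 for 3 against 5 mice and 0.1 for 3 against 3). On simulated data with 200 changed genes of 696, the fit recovered 65.0% of log2 changes of 1 and 93.0% of changes of 2 for allo-MCd against allo-WT, and 3.84% of its calls were false. Recovery was 56.75% and 91.3% for allo-WT against syngeneic, and 62.45% and 94.8% for allo-MCd against syngeneic. The simulation had normal noise, changes of random sign and no shift in the scaling of a mouse, so these figures do not cover scaling error.

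The members and gene lists were chosen with earlier results of these data known. All 12 receptors were named. Named too were the co-receptors, adaptors and inhibitors, and from each other pathway list the 2 genes with the largest called difference between allo-MCd and allo-WT whose groups did not overlap, while Jun and Il12a were named after their values were seen. Groups were those of the labels. The mouse numbers did not pair mice: deviations from group means correlated at -0.11 to 0.21 over 9 same-number pairs, and 3 pairs exceeded 0.1. Alternatives changed the pseudocount, filter, scaling, test, trend, samples in the fit and block. Probe sequences and lengths were not used here, so levels were not compared between genes. P-values measure the spread between these mice, and counts without replicate arrays of a mouse leave technical error unmeasured.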

Additional observations from a re-analysis of the deposited data

Results flagged for a closer look

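Of 13 groups of values tested for an outlying mouse, 1 was singled out, where chance alone marks about 1 in 20. All 13 were of allo-MCd mice, for the receptors and the endosomal minus surface difference. The syngeneic and allo-WT groups were too small for this test, so allo-WT mouse 1 was not examined by it. Tlr12 was 5.32 normalized counts in allo-MCd mouse 1, and the other 4 allo-MCd mice lay between 8.77 and 9.30. All 5 values were below the background of their mouse.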

How the results depend on the processing

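Under the 23 alternatives run, 9 of the 11 receptors called between allo-MCd and allo-WT skin were called in every fit that tested them, as were Tlr1, Tlr8 and Tlr13 between allo-WT and syngeneic skin and Tlr9 between allo-MCd and syngeneic skin. The filter of at least 50 did not test Tlr12. The count of 8 between allo-MCd and syngeneic skin became 3 under median scaling, 3 under quantile normalization and 2 under the methods' 3-group test with Tukey's comparison, to which a Benjamini-Hochberg adjustment over all genes was added here. At an unadjusted Tukey p of at most 0.05, as the methods use it, that test called 10, 8 and 4 receptors in the 3 comparisons, against 10, 7 and 2 adjusted. Leaving out each mouse in turn gave 10 to 11 calls between allo-MCd and allo-WT, 4 to 8 between allo-WT and syngeneic and 6 to 8 between allo-MCd and syngeneic skin, with 4 without syngeneic mouse 3 or without allo-WT mouse 1. The endosomal minus surface difference ranged over the same fits from 0.02 to 0.28, from -0.049 to 0.21 (the negative value without allo-WT mouse 2) and from 0.15 to 0.31. Fitting the mouse number as a replicate block gave counts of 11, 7 and 8, with a different set between allo-WT and syngeneic skin, where Tlr12 lost its call (limma adjusted p = 0.1003) and Tlr3 gained one (0.72, limma adjusted p = 0.0486). Over all genes, 424, 301 and 289 calls became 302, 193 and 79 under that test with the adjustment and 354, 299 and 211 without it. Some single values changed sign. Tlr11 between allo-MCd and allo-WT was -0.19 with the replicate block, from -0.40 to 0.44 on leaving out a mouse (negative without allo-WT mouse 1 or allo-MCd mice 3 or 5), and -0.015 with voom on recovered counts. Tlr3 was 0.13 there under quantile normalization, and 0.42 under both scalings against syngeneic skin. Against syngeneic skin in allo-MCd mice, Tlr11 was 0.017 under median scaling and Tlr13 0.0059 under quantile normalization. Quantile normalization also made a call of Tlr11 between allo-MCd and allo-WT, higher in the former (1.04, limma adjusted p = 0.0249), and one between allo-WT and syngeneic skin, lower in the former (-1.05, limma adjusted p = 0.0459). Over single receptors, 47 results lost and 10 gained a call without a change of sign, 10 changed sign, and 758 stayed. Among those that changed sign, Tlr3 between allo-MCd and allo-WT also lost its call under quantile normalization (limma adjusted p = 0.655). The cause of these changes was not tested. The planned quasi-likelihood count test was not run because the deposited values are not counts, and voom was added after the data were seen. The low recovered counts of Tlr12 and the 3 mice in each of 2 groups limit precision.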
